A study of Mus musculus with 2 samples.

Results

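Cholesterol synthesis and lipoprotein uptake were described in embryonic mouse liver through 31 genes, chosen by name and found as 31 of the 43346 annotated genes measured. They comprised 9 genes of the early mevalonate and isoprenoid steps, 10 of the late sterol steps, 2 uptake receptors, 5 regulators and 5 genes of sterol transport and storage. The samples were livers of healthy B6NCrl embryos at day 13.5 of development, with males and females pooled, and carried no treatment or engineered allele. They formed 1 group of 2 biological replicates, each a total RNA library made from 10 ng of RNA with spike-in RNAs added. The labels list separate tissue samples but 1 donor entry for both, so the SD over n = 2 measures the spread between these libraries, which may be technical. No condition could be compared and no p-value was computed.

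Cholesterol is built from acetyl-CoA. The early enzymes make mevalonate and join its isoprenoid products into squalene, and the late enzymes oxidise and cyclise squalene and trim the resulting sterol. Cells also take cholesterol up from lipoproteins, release it from lysosomes with Npc1 and Npc2, and store the excess as esters made by Soat1 and Soat2. When membrane sterol is low, Scap escorts the precursors of the transcription factors Srebf1 and Srebf2 to the Golgi for cleavage, and when it is high, Insig1 and Insig2 hold Scap back. Liver is a main site of this synthesis in the adult, and the fetal liver is at the same time a blood-forming organ.

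The libraries held 39644066 expected counts in replicate 1 and 38150988 in replicate 2, of which spike-ins took 1.16% and 1.88%. All 8 liver parenchyma markers were above 1 TPM in both libraries, with summed levels of 15990 and 17854 TPM in replicates 1 and 2. The 8 erythroid markers summed to 129194 and 115120 TPM, nearly all of it from globin genes. Hba-a1 had 57869 and 50805 TPM in replicates 1 and 2, and Hbb-bs had 68505 and 61263 TPM. None of the 5 adult hepatocyte markers reached 1 TPM in both libraries. Heart markers summed to 36.8 TPM in replicate 1 and 93.1 TPM in replicate 2, and their part in the results was not tested. In this bulk tissue, fewer cells of a type and less RNA per cell cannot be told apart.

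Every sterol gene was detected in both libraries. All 31 had at least 1 TPM (a transcript level that allows for transcript length and sequencing depth) in both libraries, which 52.1% of protein-coding genes and 28.1% of all annotated genes reached. In 29 of the 31 the level was at least 10 TPM in both libraries, which held for 27.9% of protein-coding genes. The exceptions were Npc1, with 6.03 and 8.27 TPM in replicates 1 and 2, and Ggps1, with 9.58 and 12.8 TPM. The median over the 31 genes was 36.6 ± 2.24 TPM, beside 12.4 ± 1.03 TPM for the 11194 protein-coding genes at 1 TPM or more (SD, n = 2), and 28 of the 31 lay above that median. Together they held 0.154% ± 0.0186 of gene TPM (SD, n = 2). Between 617 and 13595 expected counts stood behind each value.

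**Figure D1:**
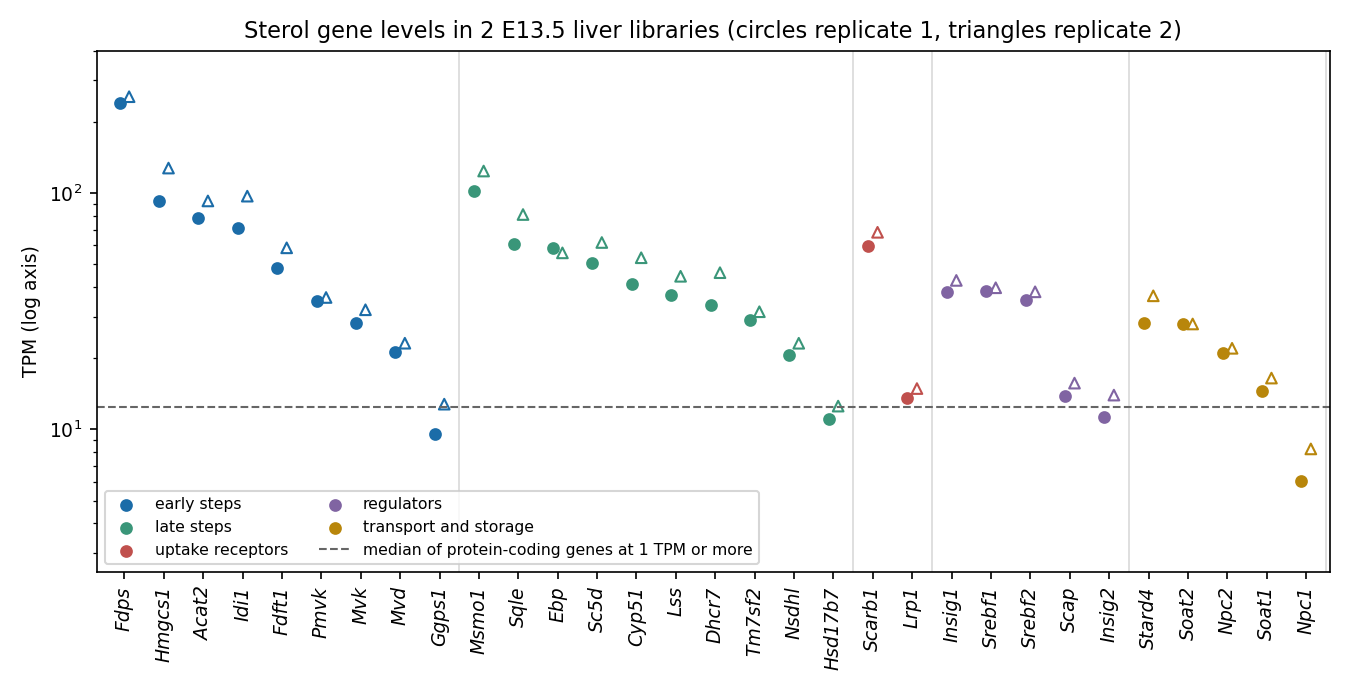
TPM of the 31 sterol genes on a log axis, by role, with a filled circle for replicate 1 and an open triangle for replicate 2; the dashed line is the median of protein-coding genes at 1 TPM or more, 12.4 TPM. Fdps is highest at 247.7 TPM on average and Npc1 lowest at 7.15 TPM. All 31 genes but Ebp are lower in replicate 1, as are 82.0% of the 8112 genes averaging 500 or more counts.

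Before any scaling beyond TPM, 30 of the 31 genes were lower in replicate 1, Ebp being the exception. So were 82.0% of the 8112 genes averaging 500 or more counts, and 72.2% of the 15997 averaging 10 or more. The median gene was shifted the same way, by −0.14 on the log2 TPM scale, so the TPM values of the libraries differ for most genes. Ranked by mean TPM, 22 of the 30 neighbouring pairs of sterol genes had ranges that overlapped over the libraries. Such ranges set values of different libraries against each other, so an overlap does not mean that the order differed between libraries. Idi1 lay above Sqle in each library, with 71.0 and 97.0 against 61.1 and 81.1 TPM in replicates 1 and 2. Other overlapping pairs, such as Acat2 and Idi1, changed order between the libraries. The ranges did not overlap between Fdps and Msmo1, Hmgcs1 and Acat2, Scarb1 and Ebp, Srebf1 and Srebf2, Mvk and Soat2, Soat2 and Mvd, Npc2 and Soat1, or Ggps1 and Npc1.

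Promoter windows of 300 bases, from 250 before to 50 after the transcription start, were given by RefSeq on build GRCm38.p6 for 24 of the 31 genes. Fdps, Fdft1, Sqle, Scarb1, Soat2, Stard4 and Npc1 were not matched. The NF-Y box CCAAT, bound by a factor known to work beside sterol regulatory element-binding proteins, was found on either strand in 21 of the 24 genes. All 9 late-step genes with a window held it, as did 6 of 7 early-step genes, 4 of 5 regulators and both transport and storage genes. Acat2, Lrp1 and Scap had no match. In Insig2 the box lay only in the window of the start at 121332589, whose transcript Insig2-202 had 0 counts in both libraries. In Pmvk it lay only in the window of a start at 89454541, and the measured Pmvk transcripts start at 89459118 or later. Starts were not compared in this way for every gene. The box was present in windows of 41.1% of the 27025 genes in the table and of 43.9% of the 4833 protein-coding genes at 10 TPM or more.

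The Sp1 box GGGCGG was found in 22 of the 24 genes, in 38.2% of all genes and in 70.2% of those at 10 TPM or more. The E-box CANNTG, which contains 2 free positions and matches often, was found in 18 of the 24 genes and in 75.0% of all genes. The sterol regulatory element core TCACNCCAC was found in Hmgcs1 only among the 24, and in 1.44% of all genes. Both strands were searched for each motif, and the core shares no whole box with the other motifs. Pmvk, Dhcr7, Srebf1, Scap and Insig2 had more than 1 window, which gives more chances of a match. A match is a description of letters and not a bound site. Read on the given strand alone, the NF-Y box was found in 12 of the 24 genes and in 23.7% of all genes.

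The 250 bases before the start are shown for 3 genes with 1 window each, the 2 with the lowest replicate ratio given further on (Hmgcs1 and Idi1) and the 1 with the highest (Ebp). They are also shown for the upstream and middle starts of Srebf1, but not for its internal start. Capitals mark the NF-Y box, read as CCAAT or as ATTGG on the other strand, and in Hmgcs1 also the core TCACCCCAC. Sequences run 5′ to 3′ on the strand of the gene and are RefSeq's, build GRCm38.p6.
Hmgcs1, chr13:119690101-119690350, plus strand: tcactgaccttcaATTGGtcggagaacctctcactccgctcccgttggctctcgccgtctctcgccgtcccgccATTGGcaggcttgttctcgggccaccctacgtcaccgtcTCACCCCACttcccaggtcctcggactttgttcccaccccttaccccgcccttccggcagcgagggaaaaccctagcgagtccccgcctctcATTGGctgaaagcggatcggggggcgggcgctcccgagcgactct
Idi1, chr13:8885356-8885605, plus strand: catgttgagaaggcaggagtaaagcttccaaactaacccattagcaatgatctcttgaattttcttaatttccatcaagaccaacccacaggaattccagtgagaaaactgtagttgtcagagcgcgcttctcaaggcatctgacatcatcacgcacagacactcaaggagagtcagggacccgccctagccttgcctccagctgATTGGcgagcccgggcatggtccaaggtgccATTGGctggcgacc
Ebp, chrX:8193513-8193762, minus strand: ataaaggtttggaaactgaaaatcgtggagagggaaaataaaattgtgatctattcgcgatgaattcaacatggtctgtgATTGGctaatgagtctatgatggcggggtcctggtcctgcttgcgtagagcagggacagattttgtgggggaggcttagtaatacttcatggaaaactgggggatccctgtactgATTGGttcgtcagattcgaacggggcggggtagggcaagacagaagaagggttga
Srebf1 upstream start, chr11:60222582-60222831, minus strand: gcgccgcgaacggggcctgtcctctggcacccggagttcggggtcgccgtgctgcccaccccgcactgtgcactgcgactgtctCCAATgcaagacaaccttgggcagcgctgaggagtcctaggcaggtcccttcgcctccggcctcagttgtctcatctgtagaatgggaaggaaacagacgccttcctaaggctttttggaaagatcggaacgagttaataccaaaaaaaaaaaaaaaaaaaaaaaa
Srebf1 middle start, chr11:60220628-60220877, minus strand: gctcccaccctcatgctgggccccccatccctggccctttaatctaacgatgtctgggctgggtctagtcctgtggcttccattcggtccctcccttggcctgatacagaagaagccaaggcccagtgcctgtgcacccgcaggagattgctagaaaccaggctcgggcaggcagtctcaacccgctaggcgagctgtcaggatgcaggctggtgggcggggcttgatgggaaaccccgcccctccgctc
Hmgcs1 had 3 NF-Y boxes in the bases shown and another past the start, with the core between the second and the third. Idi1 and Ebp had 2 each. In GENCODE the leading Idi1 transcript, Idi1-201, starts earlier than in RefSeq, at 8885501, so both boxes of Idi1 lie past that start. The upstream start of Srebf1 had 1, and the middle start had no NF-Y box but 3 Sp1 boxes in its window.

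**Figure D2:**
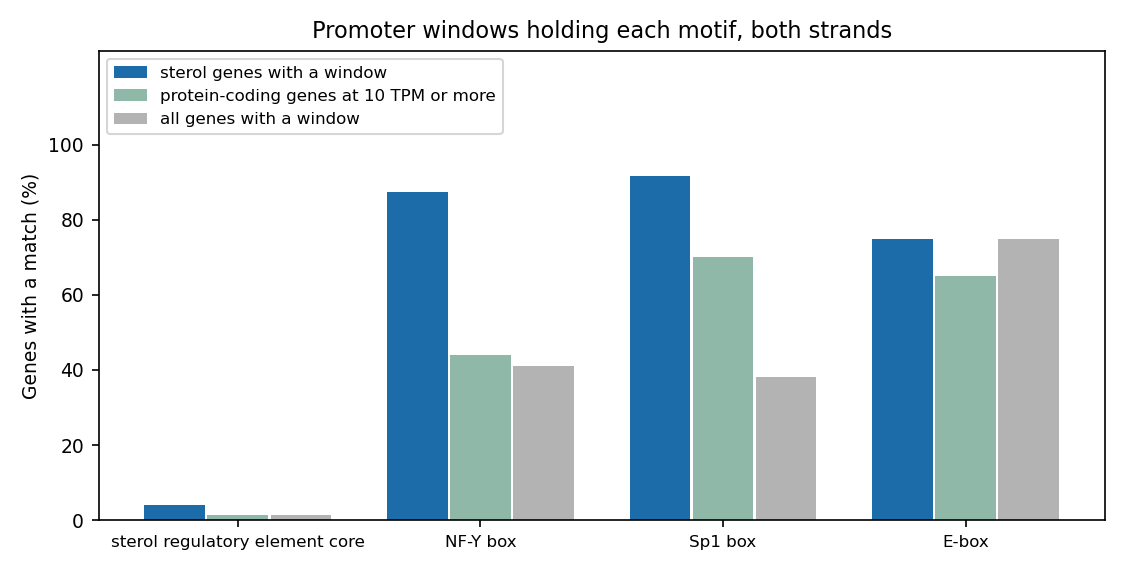
Share of genes, in percent, whose promoter window holds each motif on either strand, for the 24 sterol genes with a window (left bars), protein-coding genes at 10 TPM or more (middle bars) and all genes with a window (right bars). The NF-Y box stands at 87.5%, 43.9% and 41.1%, and the E-box at 75.0%, 64.9% and 75.0%.

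The early steps had the highest list median of the 5 roles, 48.3 TPM in replicate 1 and 58.7 TPM in replicate 2, and spanned 22.1-fold between their members. Fdps, which joins isoprenoid units into farnesyl diphosphate, was the highest of all 31 genes, with 239.7 and 256 TPM in replicates 1 and 2. It lies at chr3:89093588-89101959 on the minus strand (GRCm38). Hmgcs1, the cytosolic synthase of hydroxymethylglutaryl-CoA, had 92.7 and 128 TPM and lies at chr13:119690379-119708260 on the plus strand. Both exceeded 90% of the protein-coding genes at 1 TPM or more.

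Acat2, the cytosolic thiolase that begins the pathway, had 78.8 and 92.6 TPM in replicates 1 and 2. Idi1, which isomerises isopentenyl diphosphate, had 71.0 and 97.0 TPM. Fdft1, which commits farnesyl diphosphate to squalene, had 48.3 and 58.7 TPM. The ranges of Acat2 and Idi1 overlapped, and Fdft1 lay below both.

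The enzymes between Hmgcs1 and Idi1 were lower. Pmvk, the phosphomevalonate kinase, had 35.0 and 36.2 TPM in replicates 1 and 2. Mvk, the mevalonate kinase, had 28.2 and 32.1 TPM. Mvd, the diphosphomevalonate decarboxylase, had 21.3 and 23.2 TPM. The 3 did not overlap with each other or with the 5 higher early genes. Ggps1, which makes geranylgeranyl diphosphate for protein prenylation and so leads away from sterols, was the lowest early gene at 11.2 ± 2.27 TPM (SD, n = 2).

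Several of the 31 genes, early ones and others, share sequence with other features. Whether counting used the strand is not stated in the labels or headers, so their levels carry that uncertainty. Fdft1 shares 774 exonic bases with Ctsb on the opposite strand, a gene at 229.6 and 253 TPM in replicates 1 and 2. Npc1 shares 511 with Rmc1 on the opposite strand, at 50.45 and 52.17 TPM. On the same strand, Tm7sf2 shares 532 with Vps51, at 27.04 and 29.15 TPM. Fdps, also on the same strand, shares 1124 with Gm43738, a gene without values in these data. Acat2 is 98.3% identical to Acat3 over 1441 bases, and Acat3 had 2.30 and 1.68 TPM. Idi1 is identical over 684 bases to the processed pseudogene Gm13502, which was given 72.5 and 270.9 counts, against 7742 and 9516 for Idi1. The counts that the model divides had a posterior SD of at most 42.2 for any of the 31 genes, and 21 genes had a posterior SD of 0 in both libraries.

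The late steps had a list median of 39.2 TPM in replicate 1 and 49.6 TPM in replicate 2, and all 10 were above 10 TPM. Msmo1, which oxidises the methyl groups of methylsterols, had 102.4 and 124 TPM in replicates 1 and 2, the highest by gene TPM. Sqle, the squalene epoxidase and a known control point of the pathway, had 61.1 and 81.1 TPM. Its range overlapped with that of Idi1 and, below it, of Scarb1. Over protein-coding transcripts of at least 1000 nt the order of these late genes turned, with 60.5 and 80.6 TPM for Sqle against 58.4 and 79.8 TPM for Msmo1, and the ranges overlapped.

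Ebp, the isomerase that shifts a ring double bond, had 58.6 and 55.8 TPM in replicates 1 and 2. Sc5d, the lathosterol desaturase, had 50.6 and 61.8 TPM, and Cyp51, the lanosterol demethylase, had 41.4 and 53.3 TPM. These 3 formed a run of overlapping ranges. Lss, which cyclises squalene epoxide to lanosterol, had 37.0 and 44.5 TPM, and Dhcr7, the reductase that ends a branch of the pathway, had 33.5 and 46.0 TPM. The ranges of Lss and Dhcr7 overlapped.

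The lowest late genes were reductases and demethylation partners. Nsdhl, which acts after Msmo1 in removing methyl groups, had 20.7 and 23.2 TPM in replicates 1 and 2. Hsd17b7, the ketoreductase of the same step, had 11.1 and 12.6 TPM. Tm7sf2, a sterol reductase acting after Cyp51, had 29.0 and 31.5 TPM. All 3 lay below Lss in both libraries by gene TPM. Over protein-coding transcripts of at least 1000 nt, Lss had 21.3 and 22.5 TPM, below Tm7sf2 with 23.8 and 25.2 TPM and overlapping Nsdhl with 20.7 and 23.1 TPM, while Hsd17b7 had 7.91 and 8.12 TPM.

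Tm7sf2 shares its reaction with Lbr, an inner nuclear membrane protein that is not among the 31 genes. Lbr had 222.6 and 282 TPM in replicates 1 and 2, against 29.0 and 31.5 TPM for Tm7sf2. The log2 ratio of Lbr to Tm7sf2 was 3.05 ± 0.16 (SD, n = 2), and the ranges did not overlap. Taken over expected counts, with no correction for length, the log2 ratio was 4.41.

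The step from early to late genes was small beside the spread within each list. The median log2(TPM + 0.1) of early genes lay 0.27 ± 0.04 above that of late genes, 0.53 ± 0.12 above regulators, and late genes lay 0.26 ± 0.16 above regulators (SD, n = 2). Each difference had the same sign in both libraries. Over protein-coding transcripts of at least 1000 nt alone, a setting chosen after the data were seen, these differences were 0.82, 1.33 and 0.51. The direction held, and the size depended on which transcripts were counted.

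The 2 uptake receptors lay further apart than the medians of the roles. Lrp1, a large endocytic receptor for remnant lipoproteins and many other ligands, had 13.6 and 14.9 TPM in replicates 1 and 2. Scarb1, the receptor for high-density lipoprotein, had 59.5 and 68.2 TPM. Lrp1 stood to Scarb1 at a log2 ratio of −2.16 ± 0.05 (SD, n = 2). It was −3.62 over protein-coding transcripts of at least 1000 nt and −1.02 over expected counts. With only 2 members, their median against regulators, −0.28 ± 0.04, turned to 0.24 when the mean was taken in its place.

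Of the regulators, Srebf2, the factor known chiefly for sterol genes, had 35.3 and 38.2 TPM in replicates 1 and 2. Srebf1, the paralog known chiefly for fatty acid genes, had 38.6 and 39.8 TPM. The log2 ratio of Srebf2 to Srebf1 was −0.09 ± 0.05 (SD, n = 2). That near-equality rested on short annotated transcripts of Srebf1. Over protein-coding transcripts of at least 1000 nt the ratio was 0.80, with Srebf2 at 35.3 and 38.2 TPM and Srebf1 at 19.6 and 22.7 TPM, and over expected counts it was 0.99, with 6540 and 6355 counts for Srebf2 and 3182 and 3290 for Srebf1.

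Insig1, itself a known target of the Srebf factors, had 38.2 and 42.7 TPM in replicates 1 and 2. Insig2, its paralog, had 11.3 and 13.97 TPM. Insig1 exceeded Insig2 by a log2 ratio of 1.69 ± 0.11 (SD, n = 2), and by 2.53 over protein-coding transcripts of at least 1000 nt. Scap, the escort protein that both bind, had 13.8 and 15.7 TPM, overlapping the range of Lrp1 below it. By gene TPM Insig2 lay below Scap in each library, though their ranges over the libraries overlapped. Over long coding transcripts Insig2 had 6.50 and 7.51 TPM, and its range no longer overlapped that of Scap.

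Transport and storage genes had the lowest list median by gene TPM, 21.1 TPM in replicate 1 and 22.0 TPM in replicate 2. Their median log2(TPM + 0.1) lay −0.77 ± 0.04 from that of regulators (SD, n = 2), and −0.24 over protein-coding transcripts of at least 1000 nt. On that last measure uptake receptors lay at −0.31 ± 0.11 from regulators (SD, n = 2), so the order of these lists was not kept. Stard4, which carries sterol between membranes, was highest on average by gene TPM with 28.1 and 36.8 TPM in replicates 1 and 2. Over long coding transcripts it had 15.8 and 20.1 TPM, below Soat2 and Npc2 in both libraries. Soat1, the widely expressed sterol acyltransferase, had 14.6 and 16.5 TPM, and Soat2, the enzyme known from liver and intestine, had 27.9 TPM in both. The log2 ratio of Soat1 to Soat2 was −0.85 ± 0.12 (SD, n = 2).

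Npc2, the soluble lysosomal sterol carrier, had 21.1 and 22.0 TPM in replicates 1 and 2. Npc1, its membrane partner, had 6.03 and 8.27 TPM, the lowest of the 31 genes by gene TPM. Over long coding transcripts Lrp1 had the lowest mean, 4.96 and 4.65 TPM in replicates 1 and 2, and Npc1 had 4.72 and 5.77 TPM. Npc2 exceeded Npc1 by a log2 ratio of 1.61 ± 0.28 (SD, n = 2). The only Npc2 transcript in the tables is 3261 nt long, and TPM divides by that length.

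**Figure D3:**
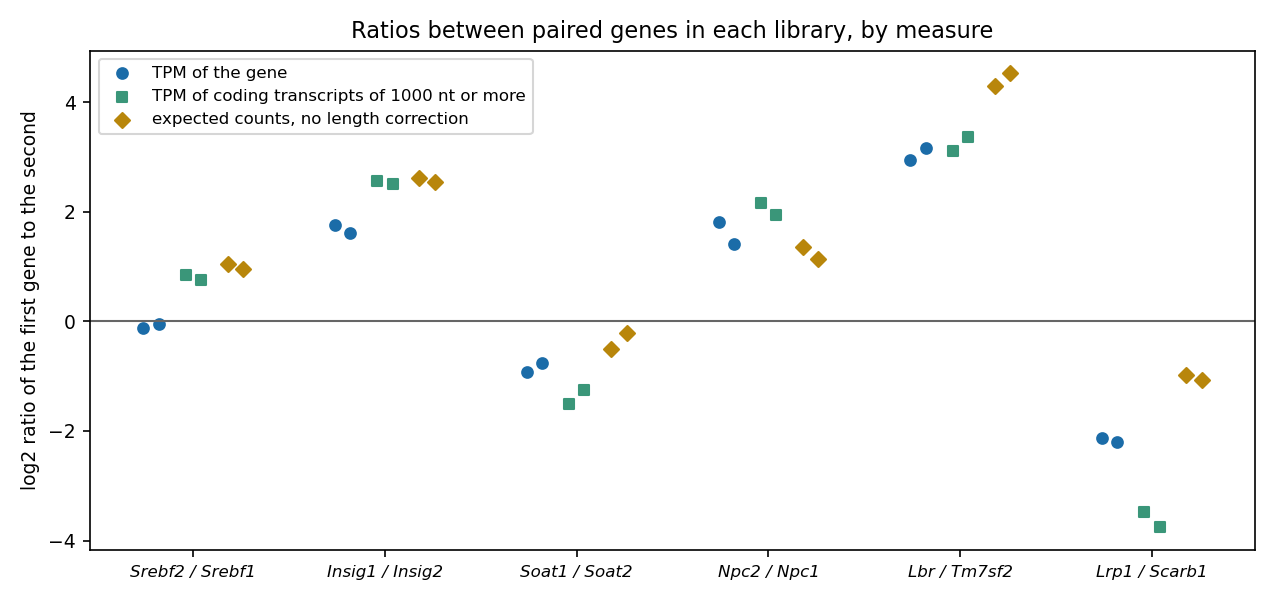
The log2 ratio between 6 pairs of genes, with the 2 points of each symbol being replicates 1 and 2, by gene TPM (circles), TPM of protein-coding transcripts of at least 1000 nt (squares) and expected counts (diamonds). Srebf2 over Srebf1 stands at −0.09, 0.80 and 0.99 by these measures, while the other 5 pairs stay on their side of 0.

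Beyond the 31 genes, 41 other genes of sterol and lipid handling had a median of 12.7 TPM in replicate 1 and 14 TPM in replicate 2. Of these, 36 had at least 1 TPM and 21 at least 10 TPM in both libraries. The highest were Lbr, then Tmem97, known to bind Npc1, with 99.3 and 109 TPM, and Acly, which makes cytosolic acetyl-CoA from citrate, with 77.5 and 96.5 TPM. The remaining 5 were below 1 TPM in both libraries. Gramd1b, a carrier of sterol from the plasma membrane, had 0.55 and 0.76 TPM, and Pnpla3, a lipid droplet protein, had 0.58 and 0.69 TPM.

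The 3 lowest of the 41 were Ch25h, an oxysterol-forming hydroxylase, with 0.19 and 0.52 TPM in replicates 1 and 2, Npc1l1, the intestinal sterol importer, with 0.10 and 0.07 TPM, and Idi2, with 0.02 and 0.01 TPM. Idi2 is the paralog of Idi1, and its 2 and 1 counts stand against 7742 and 9516 for Idi1. The isomerase transcripts measured were thus almost entirely those of Idi1.

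The 31 genes have 150 annotated transcripts in the tables, and 9 genes have 1 each. The leading transcript, that with the largest share of the gene's TPM, held over 80% in both libraries for 18 genes, 9 of them with several transcripts. The same held for 53.2% of protein-coding genes at 1 TPM or more, 1-transcript genes included. The same transcript led in both libraries for 30 genes, Srebf1 being the exception. Over expected counts, leading transcripts held over 80% in 24 genes, and in 62.4% of those protein-coding genes.

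Protein-coding transcripts of at least 1000 nt held over 90% of gene TPM in 19 genes and under 60% in 6, namely Lrp1, Ebp, Srebf1, Lss, Stard4 and Insig2. These counts have no background over all protein-coding genes, so whether they are usual for this annotation was not tested. For Lrp1 the share was 33.8% ± 3.67 (SD, n = 2). Its leading transcript by TPM was Lrp1-208, a retained intron of 763 nt with 41.8% and 36.5% of TPM in replicates 1 and 2. The receptor's 14888-nt transcript Lrp1-201 had 27.7% and 25.4% of TPM but 2113 and 1900 of the gene's 2677 and 2562 counts. Gene TPM of Lrp1 therefore included much from short fragments, whose TPM rises with few counts.

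Ebp showed the same structure with coding fragments. Ebp-201, of 1743 nt, had 37.9% and 42.0% of TPM in replicates 1 and 2, Ebp-203, of 526 nt, had 34.6% and 36.0%, and the retained intron Ebp-202 had 25.5% and 22.0%. In Msmo1, the 1329-nt processed transcript Msmo1-206 had 39.9% and 33.4%, beside 57.0% and 64.4% for the coding Msmo1-201. Counted over coding transcripts of at least 1000 nt alone, Ebp had 22.9 ± 0.849 TPM and Msmo1 69.1 ± 15.1 TPM (SD, n = 2), against 57.2 ± 1.97 and 113 ± 15.2 TPM for the whole genes.

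**Figure D4:**
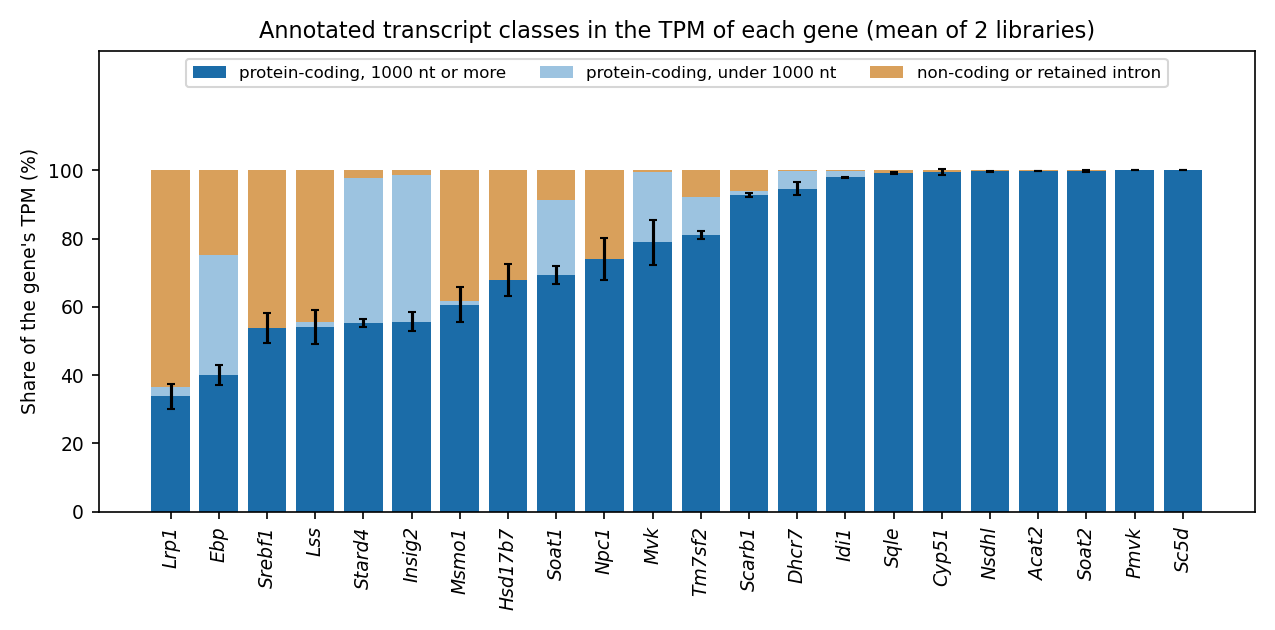
Share of each gene's TPM, in percent, held by protein-coding transcripts of at least 1000 nt, shorter protein-coding transcripts, and non-coding or retained-intron transcripts, for the 22 sterol genes with several transcripts; bars are means of 2 libraries and whiskers the SD of the lowest class. Lrp1 is lowest with 33.8% in long coding transcripts and Ebp follows with 40.0%.

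Srebf1, at chr11:60199089-60222581 on the minus strand, is transcribed from alternative first exons that give proteins differing at the amino end. The middle start, whose promoter is shown above, gives Srebf1-201, a coding transcript of 4299 nt. It held 39.6% of TPM in replicate 1 and 47.9% in replicate 2, and 76.4% and 82.6% of expected counts. The upstream start is represented by 1 transcript, Srebf1-204, a non-coding fragment of 367 nt with 43.8% and 36.3% of TPM but 5.39% and 3.99% of counts.

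The internal start of Srebf1 had 8.27% and 8.15% of TPM in replicates 1 and 2. By expected counts it had 11.7% and 10.3%, more than the upstream start. These came from Srebf1-207, a coding transcript of 3177 nt. By TPM, the leading transcript was therefore the upstream fragment in replicate 1 and Srebf1-201 in replicate 2, and by counts it was Srebf1-201 in both. The share of the upstream start, 40.0% ± 5.32 by TPM (SD, n = 2) and 4.69% by counts, thus differed with whether reads of the 367-nt fragment were weighted by its length.

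Between the replicates, the 31 genes differed little once library size was scaled by TMM. The log2 ratio of replicate 1 over replicate 2 had a median of −0.05, with 20 genes lower and 11 higher in replicate 1. On the same scale, 53.3% of the 8112 genes averaging 500 or more counts were lower and 46.7% higher, with a median of −0.01. Scaling by spike-in totals shifts all genes alike, and under it all 31 were higher, as were 97.0% of all genes with a ratio. With TMM, none of the 31 passed a log2 ratio of 0.32 in either direction. Of 15997 genes averaging 10 or more counts, 9.4% were lower past it and 11.6% higher. Among the 8112 genes averaging 500 or more counts, like the 31, these shares were 2.88% and 2.7%, so a count of 0 in 31 lies near the background. The median absolute log2 ratio was 0.09 in the 31 genes and 0.11 in those 8112.

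Of the 31 genes 19 are synthesis enzymes, and they held both the lowest and the highest ratio on the TMM scale. Hmgcs1 had 11002 counts in replicate 1 and 13595 in replicate 2, a ratio of 0.810 with a 95% exact binomial interval of 0.789 to 0.830, which covers counting error only. Idi1 had a ratio of 0.814, Dhcr7 0.827, Ggps1 0.835 and Sqle 0.841, each with its interval below 1. The highest was that of Ebp, also a synthesis enzyme, 1.14 with an interval of 1.07 to 1.21. It was followed by the storage enzyme Soat2 at 1.11 and by Pmvk of the early steps at 1.08.

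In all, the interval lay below 1 for 12 genes, 5 early, 5 late and 2 of transport and storage, and above 1 for 5. Among the 8112 genes the shares were 31.1% and 26.3%, so the counts in the 31 genes lie near the background. The intervals of all 5 regulators and both receptors spanned 1. Srebf2 had a log2 ratio of 0.04 and Srebf1 had −0.05, both under TMM scaling.

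Transcript length moved with the ratio over all genes. In 10 bins of the 8112 genes by length, the median log2 ratio was 0.16 in the shortest, with a median length of 743 nt, and −0.12 in the longest, at 5938 nt. Ebp and Pmvk lie in a bin with a median of 0.09, and Hmgcs1 in a bin with −0.09. After subtraction of the bin medians, chosen after the data were seen, 17 genes were lower and 14 higher in replicate 1, with a median of −0.02. Hmgcs1 stood at −0.21, Idi1 at −0.24 and Ebp at 0.09. The lowest was then Ggps1 at −0.25 and the highest Npc2 at 0.19, so the highest was no longer a synthesis enzyme. Spike-ins had a median log2 ratio of −0.56 on the TMM scale, and under scaling by spike-in totals the median was 0.59 for the 31 genes and 0.64 for all genes with a ratio.

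**Figure D5:**
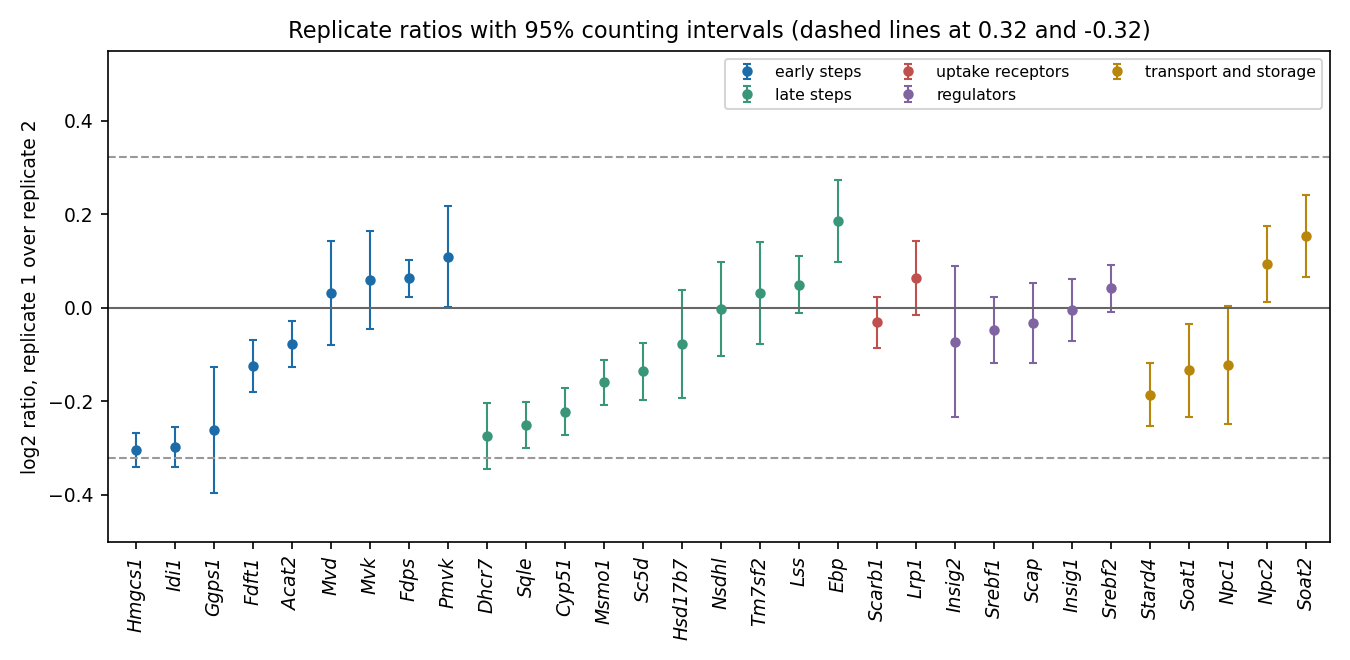
The log2 ratio of expected counts, replicate 1 over replicate 2, after TMM scaling, for each of the 31 genes by role, with 95% exact binomial counting intervals; dashed lines mark 0.32 in either direction. Hmgcs1 and Idi1 are lowest at −0.30 and Ebp highest at 0.19, and all points lie within the dashed lines, which is not so under spike-in scaling.

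Of the 41 other genes, 40 had enough counts for a ratio, with a median of −0.06. Scd2, a stearoyl-CoA desaturase, and Ch25h were lower past 0.32 in replicate 1, with log2 ratios of −0.37 and −1.24, and Vldlr and Npc1l1 were higher, with 0.35 and 0.52. These 2 lower and 2 higher of 40 stand beside 9.4% lower and 11.6% higher past it among the 15997 genes averaging 10 or more counts. Ch25h rests on 9.0 and 22.0 counts in replicates 1 and 2, Npc1l1 on 16 and 11, and Vldlr on 241 and 189.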

How the data were processed

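Total RNA of embryonic liver was measured in 2 libraries, and both tables of each library, by gene and by transcript, were used. The build was mm10 with GENCODE M4, per the deposited readme. The aligner, quantification tool and strand setting were not given in the sources used here. Expected counts are the authors' estimates of reads per feature, with reads that match several features divided by a model. TPM and FPKM were normalised by the authors for length and library size, per the file headers, the TPM sum including spike-ins and transfer RNA entries. The posterior SD of the counts is a deposited column of the authors.

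Symbols and coordinates came from GENCODE M21 on GRCm38. The genes and lists were chosen with earlier results of these data known. All 31 genes are named, and of 41 others those at the extremes, below 1 TPM or counted, and Lbr. Some steps of the pathway are not reported here. Replicate ratios are log2 of expected counts plus 0.5 with edgeR 4.0.16 TMM factors (R 4.3.3), for genes averaging 10 or more counts. Counting intervals (95%, exact binomial, scipy 1.17.1) take reads as independent although no molecular identifiers were used. Copies were searched with minimap2 2.31-r1302 against GENCODE transcripts. The ratio step was tested on simulated data. DESeq2 1.42.0 size factors, spike-in totals, posterior mean TPM, FPKM, other pseudocounts and each library alone served as alternatives.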

Additional observations from a re-analysis of the deposited data

How the results depend on the processing

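With 2 libraries and 1 group, precision is limited to the spread between these samples, and shares of transcripts are model estimates. Directions turned in 4 cases. Srebf2 over Srebf1 (log2) was 0.99 over expected counts and 0.80 over protein-coding transcripts of at least 1000 nt. Uptake receptors minus regulators was 0.24 with means for medians, and the median replicate ratio was 0.59 with spike-in totals, where 31 genes passed 0.32 on the log2 scale. That scaling moved all genes alike, with a median of 0.62 and 96.8% higher past it among the 8112 genes averaging 500 or more counts, so it shows nothing particular to the 31. With TPM ratios, the median was −0.19 and 8 genes passed, all lower, beside −0.16 and 17.2% lower past it among those 8112.

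Without globin genes in the sum, the median of the 31 genes was 55.96 TPM and their share 0.228%, and over long coding transcripts the median was 24.5 TPM. With means, early minus late was 0.32, early minus regulators 1.02, late minus regulators 0.70 and transport and storage minus regulators −0.47. With long coding transcripts, these were 0.82, 1.33, 0.51 and −0.24. With posterior mean TPM, uptake receptors minus regulators was −0.22.

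Over expected counts, Insig1 over Insig2 was 2.57, Soat1 over Soat2 −0.36, Npc2 over Npc1 1.252, Lbr over Tm7sf2 4.41 and Lrp1 over Scarb1 −1.02. Over long coding transcripts these were 2.53, −1.37, 2.05, 3.24 and −3.62. With posterior mean TPM, Srebf2 over Srebf1 was −0.14, Insig1 over Insig2 1.45 and Lrp1 over Scarb1 −2.08. The Srebf1 upstream share was 4.69% of counts, and NF-Y boxes on the given strand were found in 12 genes. The causes were not tested, except that counts leave out the length by construction. The other 82 of 116 alternative values moved by no more than 1 SD or 1.5 times. Many of these could not have moved, so their number does not measure stability. With n = 2, the value of 1 library alone always lies within 1 SD of the mean. Every sterol gene passed the filters on TPM and mean count, so changing those filters could alter nothing. The E-box reads the same on both strands. Levels of 3 genes moved by over 1 SD with TPM summed over annotated genes alone, and of 2 with posterior mean TPM. No paired comparison of conditions was possible because the samples form 1 group.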
